A study of Mus musculus with 8 samples.

Results

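The genes described here are those expressed while a single Hira-null clone of mouse embryonic stem cells (mESCs) differentiated to day 15. The rule took a gene if 2 or more of the 4 Hira-null libraries reached 1 FPKM, where FPKM is the number of sequenced fragments scaled to the length of the transcript and to the number of fragments mapped in the library. This rule kept 13677 of 24421 entries in the deposited table, and the same rule kept 13356 in the 4 WT libraries. Of the genes kept, 2090 reached 1 FPKM in exactly 2 libraries, and 846 others reached it in 1 library and were left out. The second-highest level was 1 FPKM in the last gene kept and 0.9999 FPKM in the nearest gene left out.

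RNA was sequenced from 4 groups of 2 libraries each. The day 0 group was Clone104, a Hira-null mESC line that is 1 clone, held undifferentiated in medium with leukaemia inhibitory factor (LIF). The day 15 group was the same clone after it had formed embryoid bodies in hanging drops for 2 days, had grown in suspension for 2 days more and had been plated at day 4, and its libraries are labelled cardiomyocytes. The comparison groups were WT W9.5 mESCs at day 0 and WT cultures at day 15 of the same procedure. Both lines carry HA-tagged histone H3.3, so the tag is shared by all 4 groups. The methods describe no sorting of cells, so each day 15 library is taken as RNA of a whole culture, in which fewer cells of a type and less RNA per cell cannot be told apart. The 2 libraries of a group came from separate biological samples, and every p-value below measures only the spread between such pairs.

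HIRA is the core of a chaperone complex that places the histone variant H3.3 into chromatin outside DNA replication, at active genes and regulatory elements among other places. mESCs are held in a naive state by a network of transcription factors around Pou5f1, Sox2 and Nanog. They divide fast and rely heavily on glycolysis. When LIF is withdrawn and the cells aggregate, the network is dismantled and derivatives of all germ layers form side by side, among them beating heart muscle.

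Hira itself was measured in the libraries labelled Hira-null at both days, and its level does not settle the label at either. It spans chr16:18877130-18970402 on the plus strand (mm9 build), where the gene model Gm15797 overlaps its exons on that strand. Its level was 12.4 and 11.4 FPKM at day 0 and 16.7 and 19.8 FPKM at day 15 (log2 difference 0.58, SE 0.11, adjusted p = 0.000924). The WT means were 27.9 ± 0.839 FPKM (± SD, n = 2) before and 15.6 ± 0.234 FPKM after differentiation. The Hira-null libraries thus stood below WT at day 0, and both stood above the WT mean at day 15. Which part of the gene was deleted is not given in the labels, so reads from the rest of the transcript cannot be told apart from full transcripts. The libraries of both days are therefore called the libraries labelled Hira-null in what follows, and every direction below is drawn from them under that label.

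The 4 libraries held 6897009, 8792091, 8481886 and 9183706 fragments (day 0 and then day 15), within 6897009 to 11088835 over the series. The spread between replicates exceeded that of counting, since chi-square divided by its degrees of freedom was 2.91 for the day 0 pair and 6.14 for the day 15 pair. The summed FPKM was 505172 and 500798 at day 0 and 345294 and 352473 at day 15. At day 0 the 100 genes with the highest FPKM held 34.8 and 34.7% of this sum, and at day 15 they held 21.7 and 22.7%.

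Differentiation moved most expressed genes. Differences were tested with limma on log2(FPKM + 1), with p-values adjusted by Benjamini and Hochberg's method across all 14337 genes tested in the 8 libraries. A fold on this scale understates the change of genes at low FPKM. All 13677 genes of the Hira-null rule were tested. At an adjusted p of 0.05 or less, 5249 rose in the libraries labelled Hira-null, 5109 fell and 3319 did not pass the test. Among all genes tested, 37.5% were higher and 36.4% lower. With a fold of 2 or more as well, 2932 rose and 2552 fell, beside 20.5% and 17.9% of all genes tested. A fold of 8 or more was reached by 321 genes that rose and 108 that fell. The median difference over the genes of the rule was 0.01 on the log2 scale.

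Because the summed FPKM differed between the days, the balance of rises and falls depends on the scale. Rises made up 50.7% of the calls on FPKM as deposited and 69.9% after each library was scaled to the same total (TPM). This scaling, chosen after seeing the data, moved the median difference of all genes tested from 0.01 to 0.50 on the log2 scale. A gene that fell by less than about that shift on FPKM can stand higher on TPM, and such genes and lists are named below.

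A gene was called on at a day when both libraries stood at 1 FPKM or more. By this measure 10978 genes were on at both days, and of these 3770 rose and 4233 fell. A further 1267 were on at day 15 and under 1 FPKM in both day 0 libraries, against 720 with the opposite pattern. Genes of these last groups entered the rule through the day at which they were high, so their difference follows in part from the rule. Among them 167 genes were listed at 0 in both day 0 libraries and on at day 15, and 58 were listed at 0 in both day 15 libraries and on at day 0.

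The transcripts with the highest FPKM changed in part. The RNase P RNA Rpph1 led both days and fell, from 28340 and 27950 FPKM to 14260 and 17580 FPKM (−0.83 ± 0.11 (SE)). Rpph1 is not an mRNA and the libraries were made by mRNA capture, so its FPKM may not measure its abundance. Next at day 0 was Eef1a1, a translation elongation factor, at 5064 and 5097 FPKM at day 0 and 2126 and 2041 FPKM at day 15 (log2 difference −1.29, SE 0.06, adjusted p = 2.34e-07). The cytoskeletal actin Actb stood at 2455 and 2409 FPKM at day 0 and 2230 and 2280 FPKM at day 15 and did not pass the test (adjusted p = 0.134). On TPM Actb was higher at day 15, with a log2 difference of 0.42 that passed the test. Rising into the highest ranks were Malat1, a long nuclear RNA, at 162 and 164 FPKM at day 0 and 1543 and 1321 FPKM at day 15 (log2 difference 3.12, SE 0.09, adjusted p = 2.45e-08), and Vim, the vimentin filament gene of mesenchymal and progenitor cells, at 142 and 131 FPKM at day 0 and 1014 and 1192 FPKM at day 15 (log2 difference 3.0, SE 0.09, adjusted p = 2.12e-08). For both the day 15 libraries lay far above the day 0 libraries. The exons of Eef1a1 overlap mmu-mir-703 on the same strand and those of Malat1 overlap Gm20417 on the other strand, and the sources used here do not say how strand entered the counting.

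Among genes reaching 10 FPKM the largest rises included matrix, neural and patterning genes. Col3a1, a fibrillar collagen at chr1:45368383-45406551, went from 0.183 and 0.552 FPKM to 254 and 332 FPKM (7.75 ± 0.19 (SE) on the log2 scale, adjusted p = 9.93e-09). Car3, a carbonic anhydrase of mesenchyme, fat and muscle, went from 1.14 and 0.298 FPKM to 253 and 278 FPKM (7.32 ± 0.28 (SE), adjusted p = 8.48e-08). Cdh11, a cadherin of mesenchymal cells, went from 0 and 0.08098 FPKM to 96.3 and 95.8 FPKM (6.54 ± 0.11 (SE), adjusted p = 3.81e-09). In each the lowest day 15 library exceeded the highest day 0 library many times over. Genes whose days overlapped could not be named among the largest changes, so the lack of overlap itself follows from the selection. Over genes of the rule, 6052 had both day 15 libraries higher, 5926 had both day 0 libraries higher, and 1699 overlapped. Lack of overlap alone, here or elsewhere, therefore says little about a single gene. Igfbp5, a secreted binding protein for insulin-like growth factors, stood at 0.8704 and 0.642 FPKM and then 103 and 119 FPKM, and Ptn, the growth factor pleiotrophin, at 0.3602 and 0.0563 FPKM and then 54.8 and 69.4 FPKM. Among the largest falls were Ndufa4l2, which encodes a hypoxia-responsive mitochondrial protein, and a row of germline genes. Ndufa4l2 stood at 129 and 120.1 FPKM at day 0 and 0.466 and 1.42 FPKM at day 15 (log2 difference −6.06, SE 0.23, adjusted p = 8.75e-08), and its exons overlap Shmt2 on the other strand.

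The pluripotency network fell but remained measurable at day 15. Pou5f1, the POU factor that defines the pluripotent state (chr17:35642982-35647721), stood at 904 and 911 FPKM at day 0 and 139 and 149.5 FPKM at day 15 (log2 difference −2.65, SE 0.07, adjusted p = 1.77e-08). Nanog, its homeodomain partner (chr6:122657507-122664651), stood at 304 and 307 FPKM at day 0 and 21.4 and 22.5 FPKM at day 15 (log2 difference −3.74, SE 0.07, adjusted p = 4.14e-09). In both genes the fall in the libraries labelled Hira-null was wide, although neither was near 0 there. Sox2, which is also a neural progenitor factor, fell less, from 226 and 227 FPKM to 104.6 and 106 FPKM (−1.09 ± 0.07 (SE), adjusted p = 1.16e-06).

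Of 24 naive pluripotency genes, 2 rose, 22 fell and 0 did not pass the test, with a median log2 difference of −2.27 against 0.01 for all genes tested. Their summed level was 4019 and 4029 FPKM at day 0 and 675 and 648 FPKM at day 15. Dppa5a, a small RNA-binding protein of naive cells, accounted for much of the sum, at 2352 and 2358 FPKM at day 0 and 298 and 276 FPKM at day 15 (−3.03 ± 0.10 (SE)). The naive factor genes Klf4, Zfp42 and Esrrb fell by 2.82, 2.20 and 2.38 on the log2 scale, and Fgf4, the autocrine FGF of mESCs, fell by 3.76. The 2 genes of this list that rose were Jam2, a junctional adhesion molecule (23.4 and 21.9 FPKM to 33.5 and 28.5 FPKM, 0.43 ± 0.11 (SE)), and Sall1, a zinc finger factor also used in kidney and limb (27.2 and 26.6 FPKM to 30.9 and 34.8 FPKM, 0.27 ± 0.09 (SE), adjusted p = 0.0234). The Sall1 call was lost without day 0 replicate 1 (0.29), day 0 replicate 2 (0.26) or day 15 replicate 2 (0.19).

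Of 20 core and primed pluripotency genes, 5 rose, 14 fell and 1 did not pass the test. Tdgf1, the Nodal co-receptor, fell from 743 and 725 FPKM to 47.4 and 41.7 FPKM (−4.02 ± 0.11 (SE), adjusted p = 1.76e-08). Among those that rose were Otx2, a forebrain and midbrain homeobox gene (10.01 and 11.3 FPKM to 33.5 and 28.3 FPKM, 1.45 ± 0.12 (SE)), and Fgf5 (0.291 and 0.318 FPKM to 7.08 and 7.59 FPKM, 2.68 ± 0.15 (SE)). Without day 0 replicate 2 the number that rose was 3. Dnmt3b, a de novo DNA methyltransferase of the epiblast, stood at 52.9 and 50.05 FPKM at day 0 and 38.6 and 45.6 FPKM at day 15 (log2 difference −0.29, SE 0.09, adjusted p = 0.0175), a fall that was lost without day 0 replicate 1 (−0.25) or day 15 replicate 1 (−0.17) and that became a difference of 0.23 on TPM.

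Germline genes fell almost without exception. Of 24 germline and early embryo genes, 0 rose, 23 fell and 1 did not pass the test, with a median of −2.81 on the log2 scale and a summed level of 498 and 511 FPKM at day 0 and 57.7 and 51.1 FPKM at day 15. Dazl, an RNA-binding protein of germ cells (chr17:50418719-50432924), stood at 79.7 and 78.5 FPKM at day 0 and 1.25 and 1.42 FPKM at day 15 (log2 difference −5.10, SE 0.20, adjusted p = 1.02e-07). Stra8, the retinoic acid induced gate to meiosis (chr6:34870163-34889342), stood at 37.5 and 42.9 FPKM at day 0 and 0.617 and 0.722 FPKM at day 15 (log2 difference −4.62, SE 0.15, adjusted p = 4.46e-08). In both genes the day 15 libraries lay near 1 FPKM and far below the day 0 pair. Mael and Mov10l1, which act in piRNA silencing of transposons, fell from 76.9 and 77.7 FPKM to 1.38 and 1.63 FPKM and from 31.9 and 31.99 FPKM to 0.582 and 1.01 FPKM. Stag3, a cohesin subunit of meiosis, fell from 91.5 and 86.2 FPKM to 3.05 and 2.91 FPKM. The testis tubulins Tuba3a and Tuba3b also fell (−4.67 and −4.60 on the log2 scale), but they are near-identical copies, so reads may have been split between them.

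**Figure D1:**
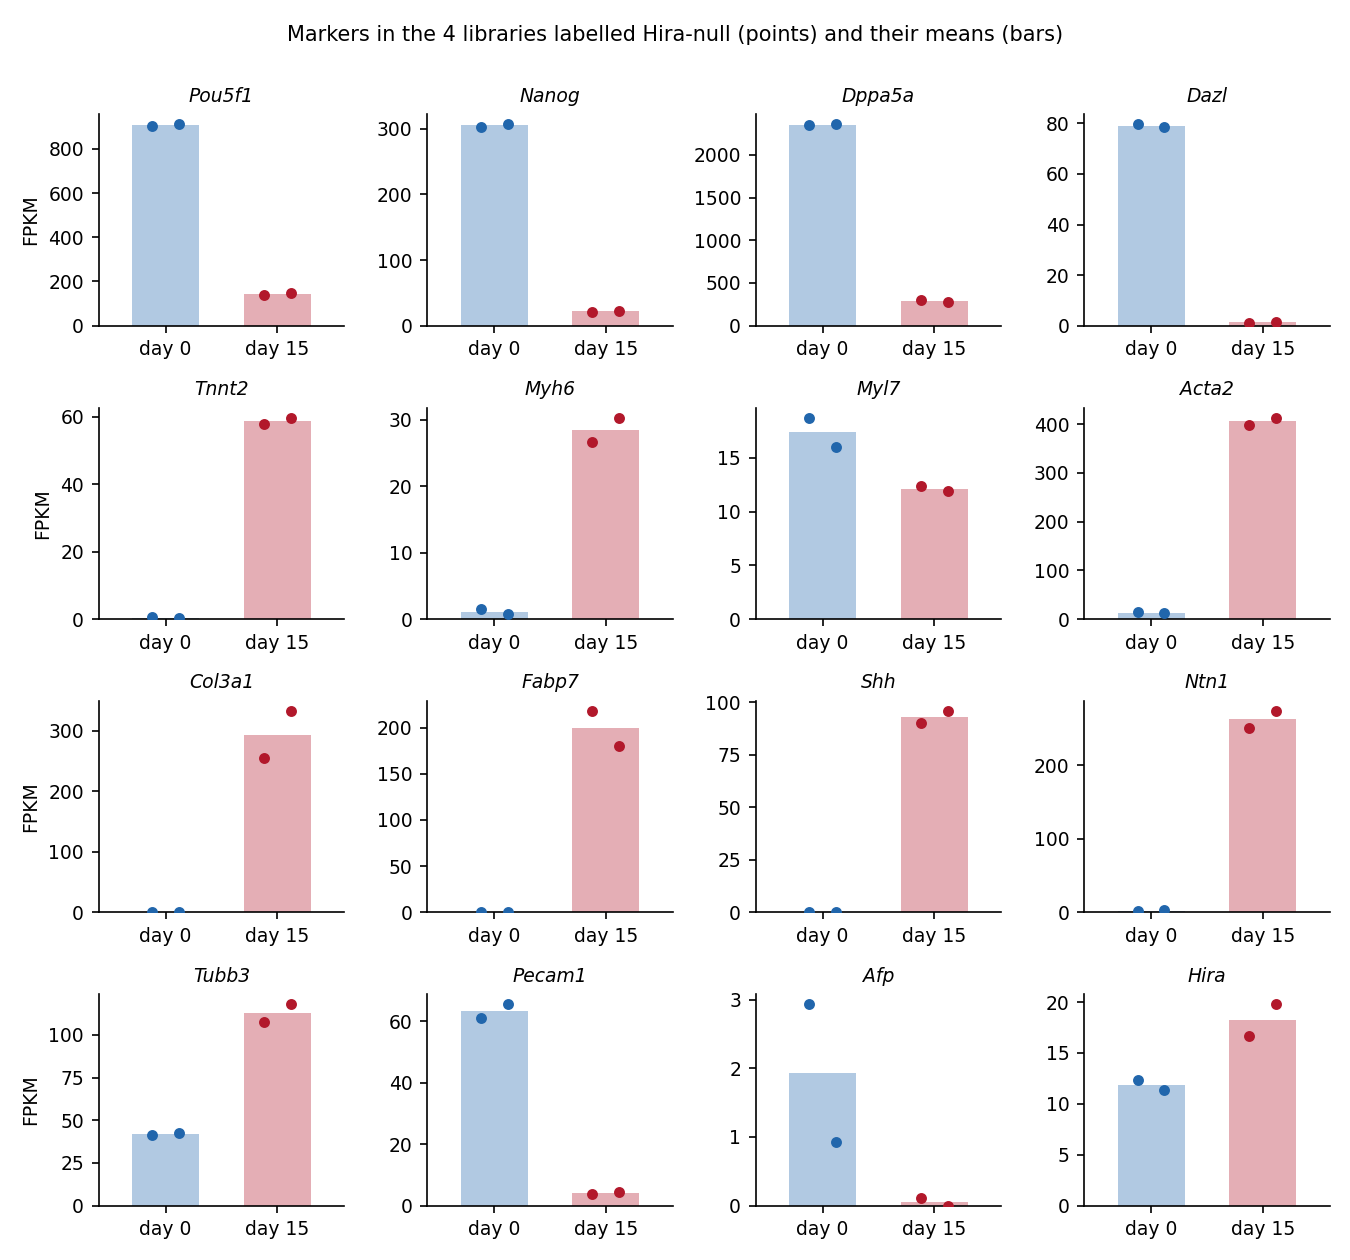
FPKM of 16 markers in the 2 day 0 (blue) and 2 day 15 (red) libraries labelled Hira-null, with points for libraries and bars for their means, on an axis from 0 for each gene. Pou5f1, Nanog, Dppa5a and Dazl fall in both day 15 libraries, Tnnt2, Myh6, Acta2, Col3a1, Fabp7, Shh and Ntn1 rise in both, and Myl7 and Pecam1 stand lower at day 15 (Myl7 reaches 0.01 in log2 difference on TPM), while Afp, which is under the level of the rule, stands at 2.93 and 0.927 FPKM at day 0 and 0.108 and 0 FPKM at day 15.

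Most cell cycle genes fell. Of 38 DNA replication and cell cycle genes, 1 rose, 36 fell and 1 did not pass the test, with a median log2 difference of −1.60 on FPKM and −1.11 on TPM. Their summed level was 3317 and 3232 FPKM at day 0 and 1068 and 1093 FPKM at day 15. Mcm5, a subunit of the replicative helicase, stood at 176 and 177 FPKM at day 0 and 39.1 and 40.8 FPKM at day 15 (−2.12 ± 0.08 (SE), adjusted p = 6.53e-08). Ccnb2, a mitotic B-type cyclin (chr9:70255496-70269361, minus strand), had the largest fall of the list at 153 and 152 FPKM at day 0 and 22.4 and 25.3 FPKM at day 15 (log2 difference −2.63, SE 0.08, adjusted p = 2.52e-08), followed by Ccnf, a cyclin that serves a ubiquitin ligase (−2.50). The exception was Mki67, a chromosome surface protein of dividing cells, at 37.2 and 35.7 FPKM at day 0 and 47.5 and 45.6 FPKM at day 15 (log2 difference 0.34, SE 0.08, adjusted p = 0.00512). Its day 15 libraries lay slightly above its day 0 libraries.

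The promoter of Ccnb2 is shown because the CCAAT box, the site of the NF-Y factor, recurs in promoters of this list. The 250 bases before its start, chr9:70269362-70269611, read 5′ to 3′ on the minus strand, with each CCAAT in capitals.
Ccnb2: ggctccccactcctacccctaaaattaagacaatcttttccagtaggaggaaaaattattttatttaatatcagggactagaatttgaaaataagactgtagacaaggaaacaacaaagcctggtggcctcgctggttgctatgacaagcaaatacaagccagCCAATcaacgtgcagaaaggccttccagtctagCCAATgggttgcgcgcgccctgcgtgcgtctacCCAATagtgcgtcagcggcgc
The letters CCAAT occur 3 times on the strand shown, beginning 87, 54 and 21 bases before the start. Searched on both strands of the same 250 bases, CCAAT was found in 26 of 38 promoters of the list (68.4%), beside 35.9% of the promoters of all genes of the rule and 34.8% of 22375 protein-coding promoters. These are matches of letters, not measured binding sites.

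D cyclins and inhibitors of cyclin-dependent kinases went both ways, as did all genes tested (37.5% higher and 36.4% lower). Of 10 such genes, 5 rose, 3 fell and 2 did not pass the test. Ccnd2, the cyclin D used in many neural and mesodermal progenitors (chr6:127075797-127101066), stood at 1.89 and 1.62 FPKM at day 0 and 117 and 118 FPKM at day 15 (log2 difference 5.43, SE 0.11, adjusted p = 5.44e-09). Ccnd3 stood at 154 and 169 FPKM at day 0 and 43.9 and 47.6 FPKM at day 15 (log2 difference −1.80, SE 0.09, adjusted p = 2.32e-07), with exons that overlap Bysl on the other strand. The libraries of the 2 days did not overlap for either gene, and the cyclin genes moved in opposite directions. The inhibitor genes Cdkn1a, Cdkn1c and Cdkn2b rose by 1.81, 1.90 and 2.54 on the log2 scale. DNA repair genes fell with the replication genes. Of 26, 1 rose, 23 fell and 2 did not pass the test, among the falls Parp1, which senses strand breaks (346 and 355 FPKM to 83.2 and 92.1 FPKM), and Msh6, a mismatch repair subunit (217 and 218 FPKM to 60.05 and 56.5 FPKM, with exons that overlap Fbxo11). Atm, the kinase that signals double strand breaks, was the gene that rose, from 5.26 and 5.23 FPKM to 11.01 and 9.93 FPKM (0.88 ± 0.12 (SE)).

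Genes of protein synthesis and glycolysis fell as well. Of 84 cytosolic ribosomal protein genes, 0 rose, 82 fell and 2 did not pass the test, with a median log2 difference of −1.46 on FPKM and −0.94 on TPM. Their summed level was 75326 and 75602 FPKM at day 0 and 26766 and 26336 FPKM at day 15. Rplp2, a stalk protein of the large subunit, stood at 3244 and 3348 FPKM at day 0 and 941 and 943 FPKM at day 15 (−1.81 ± 0.06 (SE)), and Rpl28 at 1460 and 1512 FPKM at day 0 and 336 and 329 FPKM at day 15 (−2.16 ± 0.06 (SE)). These genes have many processed pseudogenes, so the counts of single members are uncertain. Without day 15 replicate 2, or on TPM, 1 gene of the list rose.

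Of 26 glycolysis and hypoxia genes, 1 rose, 24 fell and 1 did not pass the test, with a median of −2.54 and a summed level of 11690 and 11686 FPKM at day 0 and 1853 and 2112 FPKM at day 15. Aldoa, the muscle-type aldolase of glycolysis (chr7:133938748-133944265), stood at 2608 and 2589 FPKM at day 0 and 187 and 219 FPKM at day 15 (log2 difference −3.68, SE 0.08, adjusted p = 5.72e-09). Slc2a3, the high-affinity glucose transporter GLUT3, stood at 1198 and 1182 FPKM at day 0 and 78.3 and 68.97 FPKM at day 15 (log2 difference −4.0, SE 0.07, adjusted p = 3.9e-09). Ldha, which makes lactate, and Bnip3, a hypoxia-induced mitophagy receptor, fell by 2.85 and 4.06 on the log2 scale. For each of these genes both day 15 libraries lay below both day 0 libraries by a wide gap. Pfkm, the muscle form of phosphofructokinase, was the gene of the list that rose (15.4 and 17.8 FPKM to 22.4 and 25.8 FPKM, 0.51 ± 0.12 (SE)). Of 29 respiratory chain and fatty acid oxidation genes, 2 rose, 22 fell and 5 did not pass the test, with a smaller median of −0.77 on FPKM and −0.25 on TPM. The ATP synthase subunit gene Atp5b fell from 1313 and 1304 FPKM to 482 and 484 FPKM, whereas Cd36, a fatty acid importer of heart muscle and of other cells, rose from 0.222 and 0 FPKM to 8.002 and 6.07 FPKM (2.85 ± 0.26 (SE), adjusted p = 1.02e-05).

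Heart muscle genes were checked because the day 15 libraries are labelled cardiomyocytes. Of 25 heart muscle sarcomere genes, 21 rose, 2 fell and 2 did not pass the test, with a median of 2.0 on the log2 scale. Their summed level was 112 and 110.4 FPKM at day 0 and 744 and 788 FPKM at day 15, and Tpm1, a tropomyosin that fibroblasts and smooth muscle also use, made up most of it at day 15 (420 and 460.1 FPKM). Tnnt2, the cardiac troponin T gene (chr1:137737452-137748837), stood at 0.698 and 0.182 FPKM at day 0 and 57.8 and 59.7 FPKM at day 15 (log2 difference 5.40, SE 0.22, adjusted p = 1.06e-07). Myh6, the atrial and fast myosin heavy chain (chr14:55560758-55585764), stood at 1.44 and 0.805 FPKM at day 0 and 26.6 and 30.3 FPKM at day 15 (log2 difference 3.81, SE 0.16, adjusted p = 1.32e-07), and Myh7, its slow counterpart, at 0.769 and 1.13 FPKM at day 0 and 6.14 and 8.26 FPKM at day 15 (2.07 ± 0.17 (SE)). In all of these both day 15 libraries exceeded both day 0 libraries. The cardiac actin Actc1 and the slow troponin I gene Tnni1 rose by 3.09 and 3.43 on the log2 scale.

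Other sarcomere genes did not follow. Myl7, the atrial myosin light chain (chr11:5796640-5798785), stood at 18.8 and 16.01 FPKM at day 0 and 12.4 and 11.9 FPKM at day 15 (log2 difference −0.48, SE 0.11, adjusted p = 0.0028). The Myl7 fall was lost when recovered fragment counts were tested with voom (−0.43) and became a difference of 0.01 on TPM. Des, the muscle intermediate filament desmin (chr1:75356904-75365154), stood at 8.31 and 9.77 FPKM at day 0 and 1.61 and 2.95 FPKM at day 15 (log2 difference −1.64, SE 0.19, adjusted p = 4.83e-05) and overlaps Gm15179 on the other strand. For both genes the day 15 libraries were the lower ones. Tnni3, the troponin I of mature heart, stood at 5.65 and 1.52 FPKM at day 0 and 4.09 and 3.31 FPKM at day 15, where the day 0 pair enclosed the day 15 pair and the test was not passed (adjusted p = 0.676). Without day 0 replicate 1 it passed, with a log2 difference of 0.89, and its exons overlap 6030429G01Rik. Myl4, a light chain of embryonic heart, rose from 10.9 and 10.4 FPKM to 24.7 and 21.5 FPKM (1.04 ± 0.14 (SE)).

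Cardiac transcription factors rose more often than they fell, mostly at low levels. Of 27, 22 rose, 3 fell and 2 did not pass the test, and on TPM none was lower. Without day 0 replicate 2, or without day 15 replicate 1, 1 was lower. Nkx2-5, a homeobox gene that marks heart progenitors (chr17:26975609-26978510), stood at 0.287 and 0.672 FPKM at day 0 and 1.99 and 2.55 FPKM at day 15 (log2 difference 1.15, SE 0.27, adjusted p = 0.00385). Gata4 stood at 1.93 and 1.64 FPKM at day 0 and 2.94 and 3.65 FPKM at day 15 (log2 difference 0.62, SE 0.13, adjusted p = 0.00254). Mef2c, a myogenic regulator, stood at 0.0444 and 0 FPKM at day 0 and 1.15 and 1.09 FPKM at day 15 (1.05 ± 0.16 (SE)). These factors were thus above their day 0 levels but remained low, and Tbx5, a factor of the first heart field, did not reach the rule, at 0.295 and 0.0866 FPKM at day 0 and 0.513 and 0.613 FPKM at day 15. Higher levels were reached by factors that are also used outside the heart. Nr2f2, of atria, veins and mesenchyme, went from 0 and 0.187 FPKM to 38.97 and 36.3 FPKM, and Meis1 from 0.127 and 0.331 FPKM to 20.4 and 15.8 FPKM. Hand1 stood at 4.07 and 4.26 FPKM at day 0 and 2.13 and 2.77 FPKM at day 15 (log2 difference −0.59, SE 0.13, adjusted p = 0.00241), a fall that was lost with voom (−0.70) and on TPM (−0.22). Zfpm1, a GATA cofactor, stood at 13.6 and 13.8 FPKM at day 0 and 7.72 and 11.4 FPKM at day 15, and its fall (−0.50, adjusted p = 0.0468) was lost without day 0 replicate 1 (−0.51), day 0 replicate 2 (−0.49) or day 15 replicate 1 (−0.25).

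Of 18 heart calcium, channel and hormone genes, 14 rose, 1 fell and 3 did not pass the test. Without day 15 replicate 2 the number that fell was 3, and with voom it was 2. The atrial hormone gene Nppa was listed at 0 in both day 0 libraries and stood at 4.87 and 5.196 FPKM at day 15, at least 10.7-fold higher against a floor of 3 fragments per library (adjusted p = 1.38e-06), and it overlaps Gm13054 on the other strand. Corin, the protease that activates natriuretic peptides, rose from 0.289 and 0.158 FPKM to 8.81 and 8.16 FPKM (2.96 ± 0.16 (SE)). Cacna1g, a T-type calcium channel, rose from 0.938 and 1.16 FPKM to 25.1 and 28.2 FPKM (3.75 ± 0.15 (SE)). Ryr2, the calcium release channel of heart muscle, rose from 1.02 and 1.04 FPKM to 3.29 and 3.01 FPKM (1.03 ± 0.15 (SE), adjusted p = 0.000269). The calcium pump gene Atp2a2, used by most cells, stood at 106 and 106 FPKM at day 0 and 94.4 and 100.4 FPKM at day 15 (adjusted p = 0.0979), and on TPM it was higher by 0.40. Its regulator Pln was under the level of the rule, at 0 in both day 0 libraries and 1.95 and 0.678 FPKM at day 15. Fkbp1b, which steadies the release channel, fell from 11.3 and 11.3 FPKM to 2.52 and 3.86 FPKM (−1.57 ± 0.21 (SE)). In skeletal muscle genes the balance was the other way. Of 8, 1 rose, 6 fell and 1 did not pass the test, including Mylpf, a fast light chain (−2.24), and Actn3, a fast fibre actinin (−2.30), both of which were expressed in the undifferentiated clone. Casq1, the calcium store protein, was the gene that rose (1.47).

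Smooth muscle and pericyte genes rose strongly and almost all together. Of 16, 14 rose, 0 fell and 2 did not pass the test, with a median of 2.22 and a summed level of 226 and 220 FPKM at day 0 and 1303 and 1337 FPKM at day 15. Acta2, the smooth muscle actin (chr19:34315580-34329826), stood at 13.5 and 12.9 FPKM at day 0 and 398 and 413 FPKM at day 15 (log2 difference 4.84, SE 0.07, adjusted p = 3.11e-09). Tagln, the actin-binding protein transgelin, stood at 27.6 and 31.4 FPKM at day 0 and 262 and 250.1 FPKM at day 15 (log2 difference 3.08, SE 0.08, adjusted p = 1.76e-08), with exons that overlap Pcsk7 on the other strand. Actg2, the enteric smooth muscle actin, stood at 0.332 and 0.519 FPKM at day 0 and 53.3 and 48.5 FPKM at day 15 (log2 difference 5.19, SE 0.19, adjusted p = 7.01e-08). Without day 15 replicate 2, 1 gene of the list fell. All 3 genes named had day 15 libraries many times above the day 0 libraries. Myh11, the myosin heavy chain of mature smooth muscle, did not reach the rule, at 0.0439 and 0.1201 FPKM at day 0 and 0.897 and 1.38 FPKM at day 15.

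The promoters of Tagln and Actg2 are shown because both hold a CArG box, the element bound by serum response factor, which drives muscle genes. The 250 bases before each start are chr9:45744142-45744391 for Tagln and chr6:83486260-83486509 for Actg2, both on the minus strand and read 5′ to 3′, with CArG boxes in capitals.
Tagln: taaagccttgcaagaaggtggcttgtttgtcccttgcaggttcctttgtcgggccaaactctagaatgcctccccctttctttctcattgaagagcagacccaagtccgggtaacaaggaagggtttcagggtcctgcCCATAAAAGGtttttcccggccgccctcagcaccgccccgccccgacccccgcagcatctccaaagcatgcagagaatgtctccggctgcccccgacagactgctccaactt
Actg2: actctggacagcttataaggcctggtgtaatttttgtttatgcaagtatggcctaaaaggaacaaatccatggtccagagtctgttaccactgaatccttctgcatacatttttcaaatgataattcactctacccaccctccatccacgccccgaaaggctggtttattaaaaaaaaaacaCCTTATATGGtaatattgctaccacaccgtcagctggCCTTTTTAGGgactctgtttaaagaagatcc
The box begins 112 bases before the start of Tagln, and 68 and 31 bases before that of Actg2. A CArG box was found on either strand in 4 of 16 promoters of the smooth muscle list (25%, Tagln, Cnn2, Myl9 and Actg2) and in 5 of 25 of the sarcomere list (20%, Myl3, Myl7, Ldb3, Myom1 and Fhl2), beside 1.19% for all genes of the rule and 1.30% of protein-coding promoters. A CArG box can itself hold the letters CCAAT or TATAAA, which were searched for as well.

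The list of matrix genes had the largest median rise of the lists examined. Of 32 matrix and mesenchyme genes, 30 rose, 1 fell and 1 did not pass the test, with a median of 3.21 on the log2 scale. Their summed level was 465 and 447 FPKM at day 0 and 3246 and 3722 FPKM at day 15. Beside Col3a1 and Vim above, Col1a1, the main collagen of skin and bone (chr11:94797538-94814356), stood at 20.8 and 17.1 FPKM at day 0 and 244 and 336 FPKM at day 15 (log2 difference 3.85, SE 0.15, adjusted p = 8.95e-08), with an overlap with Gm17329 on the other strand. Postn, periostin of valves and fibroblasts, stood at 0.177 and 0.173 FPKM at day 0 and 52.9 and 46.3 FPKM at day 15 (log2 difference 5.43, SE 0.12, adjusted p = 5.72e-09), and Fn1, fibronectin, at 160.2 and 157 FPKM at day 0 and 553 and 576 FPKM at day 15 (1.83 ± 0.07 (SE)). No library of day 0 reached a library of day 15 in any of these genes. The gene that fell was Thy1, a surface glycoprotein of fibroblasts, neurons and T cells, from 18.2 and 18.1 FPKM to 13.8 and 13.99 FPKM (−0.36 ± 0.13 (SE), adjusted p = 0.035). This call was lost without any 1 of the 4 Hira-null libraries (−0.37 to −0.35) and became a difference of 0.14 on TPM.

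Of 11 cartilage and bone genes, 6 rose, 4 fell and 1 did not pass the test. Col2a1, the collagen of cartilage and notochord (chr15:97806033-97835155), stood at 2.69 and 3.703 FPKM at day 0 and 154 and 213 FPKM at day 15 (log2 difference 5.45, SE 0.17, adjusted p = 3.07e-08), and Col11a1, which seeds its fibrils, at 0.8204 and 1.06 FPKM at day 0 and 72.2 and 82.6 FPKM at day 15 (5.33 ± 0.12 (SE)). Mgp, an inhibitor of calcification, was listed at 0 in both day 0 libraries and stood at 52.1 and 37.5 FPKM at day 15, at least 34.5-fold higher (adjusted p = 2.75e-08). Parietal endoderm genes, which largely encode basement membrane, rose in 6 of 9 with 0 falls and 3 not past the test.

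Neural genes were the other large group to rise in the libraries labelled cardiomyocytes. Of 28 neural progenitor and patterning factors, 26 rose, 0 fell and 2 did not pass the test, with a median of 2.90, and their summed level was 66.5 and 70.2 FPKM at day 0 and 670.3 and 710 FPKM at day 15. Fabp7, a lipid carrier that marks radial glia (chr10:57504687-57508256), was listed at 0 in both day 0 libraries and stood at 218 and 180.2 FPKM at day 15, at least 389.9-fold higher (adjusted p = 3.9e-09). Nes, the intermediate filament nestin of neural progenitors and of muscle precursors, stood at 6.77 and 6.8 FPKM at day 0 and 90.5 and 100.2 FPKM at day 15 (log2 difference 3.63, SE 0.08, adjusted p = 7.92e-09). Zic1, a dorsal neural zinc finger factor, stood at 0.217 and 0.1699 FPKM at day 0 and 31.8 and 37.1 FPKM at day 15 (4.89 ± 0.16 (SE)), and it overlaps Zic4 on the other strand. The day 15 libraries stood apart from those of day 0 in each. Pax6, of eye, forebrain and spinal cord, was low at both days, at 0.153 and 0.167 FPKM at day 0 and 1.697 and 1.88 FPKM at day 15 (1.26 ± 0.19 (SE)), and Msi1, an RNA-binding protein of neural stem cells, was already at 34.6 and 35 FPKM at day 0 and reached 93.9 and 115 FPKM.

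Of 44 neuron and synapse genes, 37 rose, 4 fell and 3 did not pass the test. The neuronal tubulin gene Tubb3 stood at 41.3 and 42.8 FPKM at day 0 and 107 and 118 FPKM at day 15 (log2 difference 1.40, SE 0.08, adjusted p = 5.28e-07), and Map2, a dendritic microtubule protein, at 1.08 and 1.03 FPKM at day 0 and 37.4 and 31.1 FPKM at day 15 (log2 difference 4.09, SE 0.15, adjusted p = 7.86e-08). Stmn4, a neuronal stathmin, rose from 0.118 and 0.0924 FPKM to 33.5 and 30.9 FPKM. Chgb, a granin of secretory vesicles, was listed at 0 in both day 0 libraries and stood at 26.6 and 33.3 FPKM at day 15, at least 210.5-fold higher (adjusted p = 3.12e-08). In all of these the day 15 pair was the higher one, including Tubb3, which had been expressed in the undifferentiated clone. Among those that fell, Stmn2, another stathmin, went from 182 and 188 FPKM to 64.2 and 64.2 FPKM (−1.51 ± 0.10 (SE)) and Grin1, an NMDA receptor subunit, fell from 9.59 and 10.3 FPKM to 0.462 and 0.601 FPKM (−2.84 ± 0.15 (SE)).

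Several genes with large rises are known from floor plate and notochord, for which no list was tested. Shh, the patterning signal of these midline tissues (chr5:28783355-28793641, minus strand), was listed at 0 in both day 0 libraries and stood at 89.8 and 95.8 FPKM at day 15, at least 636-fold higher (adjusted p = 4.64e-09). Its exons overlap 9530036O11Rik and Gm17493 on the other strand. Ntn1, the axon attractant netrin-1 (chr11:68022866-68214325), stood at 1.47 and 2.72 FPKM at day 0 and 250.4 and 274 FPKM at day 15 (log2 difference 6.44, SE 0.17, adjusted p = 1.76e-08), with an overlap with RP23-25D18.6 on the same strand. Slit2, a midline repellent, stood at 1.02 and 0.918 FPKM at day 0 and 104 and 103 FPKM at day 15 (log2 difference 5.73, SE 0.12, adjusted p = 5.72e-09), and Spon1, a floor plate matrix protein, at 0.0236 and 0.0185 FPKM at day 0 and 49.4 and 50.3 FPKM at day 15 (5.64 ± 0.13 (SE)). In all of these the day 0 libraries were near 0 beside the day 15 libraries. The factor genes Foxa2 and Foxa1, used in midline and in endoderm, stood at 0.0614 and 0.04802 FPKM at day 0 and 23.01 and 25 FPKM at day 15 (4.57 ± 0.13 (SE)) and at 1.87 and 1.29 FPKM at day 0 and 40.2 and 42.4 FPKM at day 15 (4.04 ± 0.17 (SE)). T, the brachyury gene of streak and notochord, stood at 0.213 and 0.723 FPKM at day 0 and 51.01 and 50.4 FPKM at day 15 (log2 difference 5.16, SE 0.19, adjusted p = 7.25e-08). Of 11 primitive streak and mesendoderm genes, T among them, 5 rose, 5 fell and 1 did not pass the test, and 3 fell without day 0 replicate 2 or on TPM.

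Guidance genes and protocadherins, which give neurons and other cells their surface identity, followed. Of 62 axon guidance ligands and receptors, 44 rose, 12 fell and 6 did not pass the test, with 7 lower on TPM. Of 71 listed protocadherin genes, 21 did not meet the rule. Of the 50 that did, 49 rose, 0 fell and 1 did not pass the test. The summed level of the list was 22.2 and 21.3 FPKM at day 0 and 273 and 272 FPKM at day 15. Members under 1 FPKM at day 0 met the rule through day 15, so their rise follows in part from the rule. Pcdh7 rose from 0.03202 and 0.0626 FPKM to 28.96 and 28.1 FPKM and Pcdh18 from 0.0563 and 0.0881 FPKM to 23.4 and 23.1 FPKM. Clustered protocadherins such as Pcdhgc3 (6.59 and 4.28 FPKM to 37.5 and 40.1 FPKM) share their last exons, so reads cannot be assigned to 1 member with certainty. With a mean level of 1 FPKM or more over the libraries required, 32 protocadherin genes rose.

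Of 15 neural crest genes, 11 rose, 2 fell and 2 did not pass the test. Sox9, a crest and cartilage factor, stood at 0.737 and 0.933 FPKM at day 0 and 32.9 and 31.8 FPKM at day 15 (log2 difference 4.19, SE 0.15, adjusted p = 5.44e-08), and Ednrb, an endothelin receptor of crest, at 0.0334 and 0.104 FPKM at day 0 and 23.8 and 21.7 FPKM at day 15 (4.47 ± 0.16 (SE)). Twist1, which drives mesenchymal fate, rose from 2.59 and 4.26 FPKM to 29.2 and 35.9 FPKM (2.94 ± 0.24 (SE)). Of 9 glial genes, 7 rose, 2 fell and 0 did not pass the test. Slc1a3, a glutamate transporter of radial glia and astrocytes, rose from 5.43 and 3.68 FPKM to 34.6 and 33.9 FPKM, and Sparcl1, a matrix protein of glia and vessels, from 0.2803 and 0.329 FPKM to 13.97 and 14.3 FPKM. Gfap, which defines mature astrocytes, did not reach the rule, at 0.214 and 0.252 FPKM at day 0 and 0.0551 and 0.155 FPKM at day 15.

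Among endothelial genes more fell than rose. Of 19, 6 rose, 10 fell and 3 did not pass the test, with a summed level of 148 and 155 FPKM at day 0 and 61.5 and 69.8 FPKM at day 15. Pecam1, an adhesion molecule of endothelium that mESCs also express (chr11:106515531-106611942), stood at 61.2 and 65.6 FPKM at day 0 and 3.87 and 4.44 FPKM at day 15 (log2 difference −3.64, SE 0.09, adjusted p = 1.38e-08). Nos3, the endothelial nitric oxide synthase, fell from 4.202 and 4.47 FPKM to 0.163 and 0.255 FPKM (−2.14 ± 0.23 (SE)). Kdr, the VEGF receptor of endothelium and mesoderm progenitors, rose from 0.347 and 0.167 FPKM to 7.23 and 6.92 FPKM (2.69 ± 0.15 (SE), adjusted p = 5.43e-07). Kdr was thus clearly above its day 0 pair, while Cdh5, the cadherin that defines endothelial junctions, did not reach the rule, at 0.256 and 0.114 FPKM at day 0 and 0.366 and 0.843 FPKM at day 15.

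Blood genes were sparse. Of the list, 7 of 20 listed erythroid and blood progenitor genes met the rule, and 4 rose, 2 fell and 1 did not pass the test, and the embryonic globin Hbb-bh1 was listed at 0 in all 4 Hira-null libraries. Runx1, which starts definitive blood formation, rose from 0.651 and 0.7404 FPKM to 9.57 and 9.51 FPKM (2.64 ± 0.14 (SE)). Kit, a receptor of progenitors and germ cells, fell from 30.1 and 28.7 FPKM to 6.95 and 5.88 FPKM (−2.04 ± 0.10 (SE)), and the summed level of the list fell from 57.1 and 41.4 FPKM to 32.9 and 34.6 FPKM although its median difference was 0.71. Of 14 macrophage and leukocyte genes, 7 rose, 4 fell and 3 did not pass the test, and here too the median (0.70) and the summed level (98.3 and 74.1 FPKM at day 0 and 55.1 and 63.04 FPKM at day 15) differ in sign. The complement gene C1qa, a macrophage product, was listed at 0 in both day 0 libraries and stood at 1.87 and 2.52 FPKM at day 15, at least 6.11-fold higher (adjusted p = 5.32e-05). Cd68 fell from 28.4 and 26.9 FPKM to 9.18 and 9.27 FPKM. Lyz2, a macrophage lysozyme, showed 7.299 and 0.108 FPKM at day 0 and 11.2 and 15.1 FPKM at day 15, and its call (2.21 ± 0.78 (SE), adjusted p = 0.0286) was lost without day 0 replicate 2 (0.76), day 15 replicate 1 (2.41) or day 15 replicate 2 (2.02). Tyrobp, an adaptor of myeloid receptors, showed 4.89 and 1.41 FPKM and 2.97 and 2.23 FPKM and passed the test in opposite directions without day 0 replicate 1 (0.57) and without day 0 replicate 2 (−0.72). Day 0 replicate 1 stood above replicate 2 in both genes, and what sets these replicates apart was not tested.

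Of 13 visceral endoderm and liver genes, 5 rose, 7 fell and 1 did not pass the test. The median difference was −0.71 while the summed level was 49.03 and 45.1 FPKM at day 0 and 116 and 120.5 FPKM at day 15, so median and sum differ in sign. The genes that rose to the highest levels included Foxa1 and Foxa2, described above with the midline genes. Serum protein genes stayed low. Ttr, a thyroid hormone carrier, rose from 1.07 and 0.466 FPKM to 2.11 and 2.495 FPKM (0.92 ± 0.20 (SE)). Apoa1 fell from 2.95 and 2.65 FPKM to 0.795 and 0.106 FPKM (−1.43 ± 0.22 (SE)), Trf, transferrin, fell from 6.55 and 9.47 FPKM to 0.578 and 1.22 FPKM, and Apoa2, at 2.96 and 2.92 FPKM at day 0, was listed at 0 in both day 15 libraries, at least 8.43-fold lower. Afp, the defining yolk sac and fetal liver protein, did not reach the rule, at 2.93 and 0.927 FPKM at day 0 and 0.108 and 0 FPKM at day 15. Trf shares exons with Srprb and Ttr overlaps Gm16090.

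Of 18 epithelial and epidermal genes, 4 rose, 12 fell and 2 did not pass the test. Cdh1, E-cadherin (chr8:109127251-109194146), stood at 166 and 163 FPKM at day 0 and 40.3 and 42.5 FPKM at day 15 (log2 difference −1.97, SE 0.07, adjusted p = 4.41e-08). Epcam and Cldn4, surface and tight junction genes of mESCs and epithelia, fell by 2.43 and 2.47 on the log2 scale. Of 4 trophoblast genes, 1 rose, 3 fell and 0 did not pass the test, and of 9 epicardium genes, 6 rose, 2 fell and 1 did not pass the test, with a median of 0.54 although the summed level was 106 and 112 FPKM at day 0 and 77.6 and 84.4 FPKM at day 15. Hox genes, which set position along the body axis, were few, with 14 of 39 in the rule, of which 8 rose, 4 fell and 2 did not pass the test. Hoxb2 rose from 0.715 and 0.1397 FPKM to 7.096 and 6.19 FPKM (2.45 ± 0.21 (SE)), and Hoxc13 fell from 5.56 and 6.92 FPKM to 1.34 and 1.12 FPKM (−1.69 ± 0.22 (SE)).

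In the hedgehog pathway, 9 of 11 genes rose and 2 fell. Beside Shh, the receptor and target gene Ptch1 stood at 23.5 and 19.3 FPKM at day 0 and 69.3 and 70.1 FPKM at day 15 (log2 difference 1.67, SE 0.10, adjusted p = 1.02e-06). The 2 genes that fell were the transcription factor genes Gli1 and Gli2. Gli1 fell from 18.3 and 17.1 FPKM to 11.3 and 11.9 FPKM (−0.56 ± 0.10 (SE), lost on TPM at −0.07). Gli2 fell from 22.1 and 20.7 FPKM to 6.98 and 7.66 FPKM (−1.43 ± 0.11 (SE)). Gli1 overlaps Arhgap9 on the other strand. Of 19 BMP and TGF-beta genes, 16 rose, 2 fell and 1 did not pass the test. The ligand genes Inhba and Tgfb2 rose from 0.0952 and 0 FPKM to 26.9 and 31.8 FPKM and from 1.05 and 0.964 FPKM to 38 and 35.7 FPKM, and the BMP target Id3 rose from 23.1 and 20.4 FPKM to 235 and 282 FPKM (3.51 ± 0.11 (SE), adjusted p = 4.13e-08). Its relative Id1 fell by 0.35 on the log2 scale on FPKM, which became a difference of 0.18 on TPM.

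Of 25 WNT pathway genes, 18 rose, 4 fell and 3 did not pass the test. The ligand gene Wnt5a and the receptor gene Fzd1 rose by 4.16 and 4.11 on the log2 scale, and the receptor gene Fzd5 and the nuclear effector gene Tcf7 fell by 1.77 and 2.11. Of 16 FGF pathway genes, 8 rose, 6 fell and 2 did not pass the test. The receptor gene Fgfr2 rose from 1.36 and 1.13 FPKM to 26.6 and 27.5 FPKM. Its model in the annotation used here is very long (chr7:137305965-140315033) and overlaps exons of Ctbp2. Whether that model was used in the counting is not known. Of the 2 pathway targets named here, the phosphatase gene Dusp6 rose by 1.82 and the ETS factor gene Etv4 fell by 1.73. Of 11 Notch pathway genes, 5 rose, 2 fell and 4 did not pass the test, and 8 rose on TPM. The ligand gene Jag1 and the receptor gene Notch2 rose by 2.15 and 1.96, and the ligand gene Jag2 fell by 1.63. Of 13 retinoic acid genes, 8 rose, 3 fell and 2 did not pass the test, with a median of 0.51 and a summed level of 165 and 172 FPKM at day 0 and 113 and 118 FPKM at day 15. Of 10 insulin-like growth factor genes, 6 rose, 2 fell and 2 did not pass the test, with Igfbp5 above among the rises. Of 12 immediate early and heat shock genes, 8 rose, 4 fell and 0 did not pass the test, among them Egr1 (15.5 and 14.3 FPKM to 145 and 139 FPKM, with an overlap with Gm17507) and Dusp1, which fell from 71.1 and 76.01 FPKM to 32.8 and 30.6 FPKM. Of 14 p53 target genes, 7 rose, 4 fell and 3 did not pass the test, and on TPM 11 rose and none fell.

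Most imprinted genes, which are expressed from 1 parental copy, rose. Of 36, 30 rose, 4 fell and 2 did not pass the test, with a summed level of 581 and 595 FPKM at day 0 and 2432 and 2431 FPKM at day 15. Igf2, the fetal growth factor (chr7:149836673-149852721), stood at 15.2 and 18.9 FPKM at day 0 and 819.6 and 804 FPKM at day 15 (log2 difference 5.50, SE 0.11, adjusted p = 5.03e-09), with an antisense partner, Igf2as, whose reads cannot be told apart without strand. H19, the non-coding RNA next to it (chr7:149761434-149764048), stood at 20.3 and 20.8 FPKM at day 0 and 101 and 117 FPKM at day 15 (log2 difference 2.35, SE 0.07, adjusted p = 3.19e-08) and holds Mir675 in its exons. Peg3, a zinc finger gene, stood at 5.85 and 7.199 FPKM at day 0 and 274 and 286 FPKM at day 15 (log2 difference 5.23, SE 0.09, adjusted p = 3.9e-09). Day 15 libraries exceeded day 0 libraries in all 3. Phlda2, a placental growth restrictor, fell from 74.1 and 74.9 FPKM to 4.72 and 4.704 FPKM (−3.72 ± 0.11 (SE)).

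Chromatin genes went both ways, as did all genes tested, of which 37.5% were higher and 36.4% lower. Of 10 DNA methylation genes, 5 rose, 4 fell and 1 did not pass the test. Dnmt3l, a cofactor of de novo methylation in mESCs and germ cells, fell from 235 and 238 FPKM to 26.5 and 25.5 FPKM (−3.14 ± 0.07 (SE), overlap with Aire). The maintenance pair Uhrf1 and Dnmt1 fell by 2.10 and 1.0 on the log2 scale, and Tet3, an oxidase of methylcytosine, rose by 2.43. Of 14 subunit genes of the BAF remodelling complex, 8 rose, 3 fell and 3 did not pass the test, with Smarca2 and Smarcc2 rising from 0.861 and 0.842 FPKM to 21.5 and 20.4 FPKM and from 8.86 and 8.47 FPKM to 58.04 and 58.5 FPKM and Dpf2 falling by 1.05. Of 17 Polycomb genes, 5 rose, 6 fell and 6 did not pass the test on FPKM, and 11 rose and 3 fell on TPM, where the median moved from −0.07 to 0.44. Within them Cbx7, the reader of mESCs, fell by 1.83 and the reader Cbx8 rose by 1.99, while the methyltransferase gene Ezh2 fell by 0.44 on FPKM and stood 0.08 higher on TPM.

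Of 18 genes of the HIRA complex and other histone chaperones, 7 rose, 7 fell and 4 did not pass the test, and 13 rose and 3 fell on TPM. The counts on FPKM are near the shares over all genes tested, 37.5% higher and 36.4% lower. H3f3b, which encodes H3.3 and feeds HIRA, stood at 389.8 and 384 FPKM at day 0 and 434 and 435 FPKM at day 15 (0.17 ± 0.07 (SE), adjusted p = 0.0673), and it was higher past the test under 5 of the other settings tried, among them TPM (0.69). Ubn2, a partner of HIRA, stood at 3.45 and 3.79 FPKM at day 0 and 11.8 and 11.02 FPKM at day 15 (1.42 ± 0.13 (SE)), and Atrx, of the other H3.3 pathway, at 8.81 and 9.49 FPKM at day 0 and 44.6 and 38.5 FPKM at day 15 (2.06 ± 0.11 (SE)). Asf1b and Chaf1b, chaperones tied to replication, fell by 2.62 and 1.88. The 13 interferon and MHC class I genes split as 3 that rose, 7 that fell and 3 not past the test, with a median of −0.40 on FPKM that became 0.11 on TPM.

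**Figure D2:**
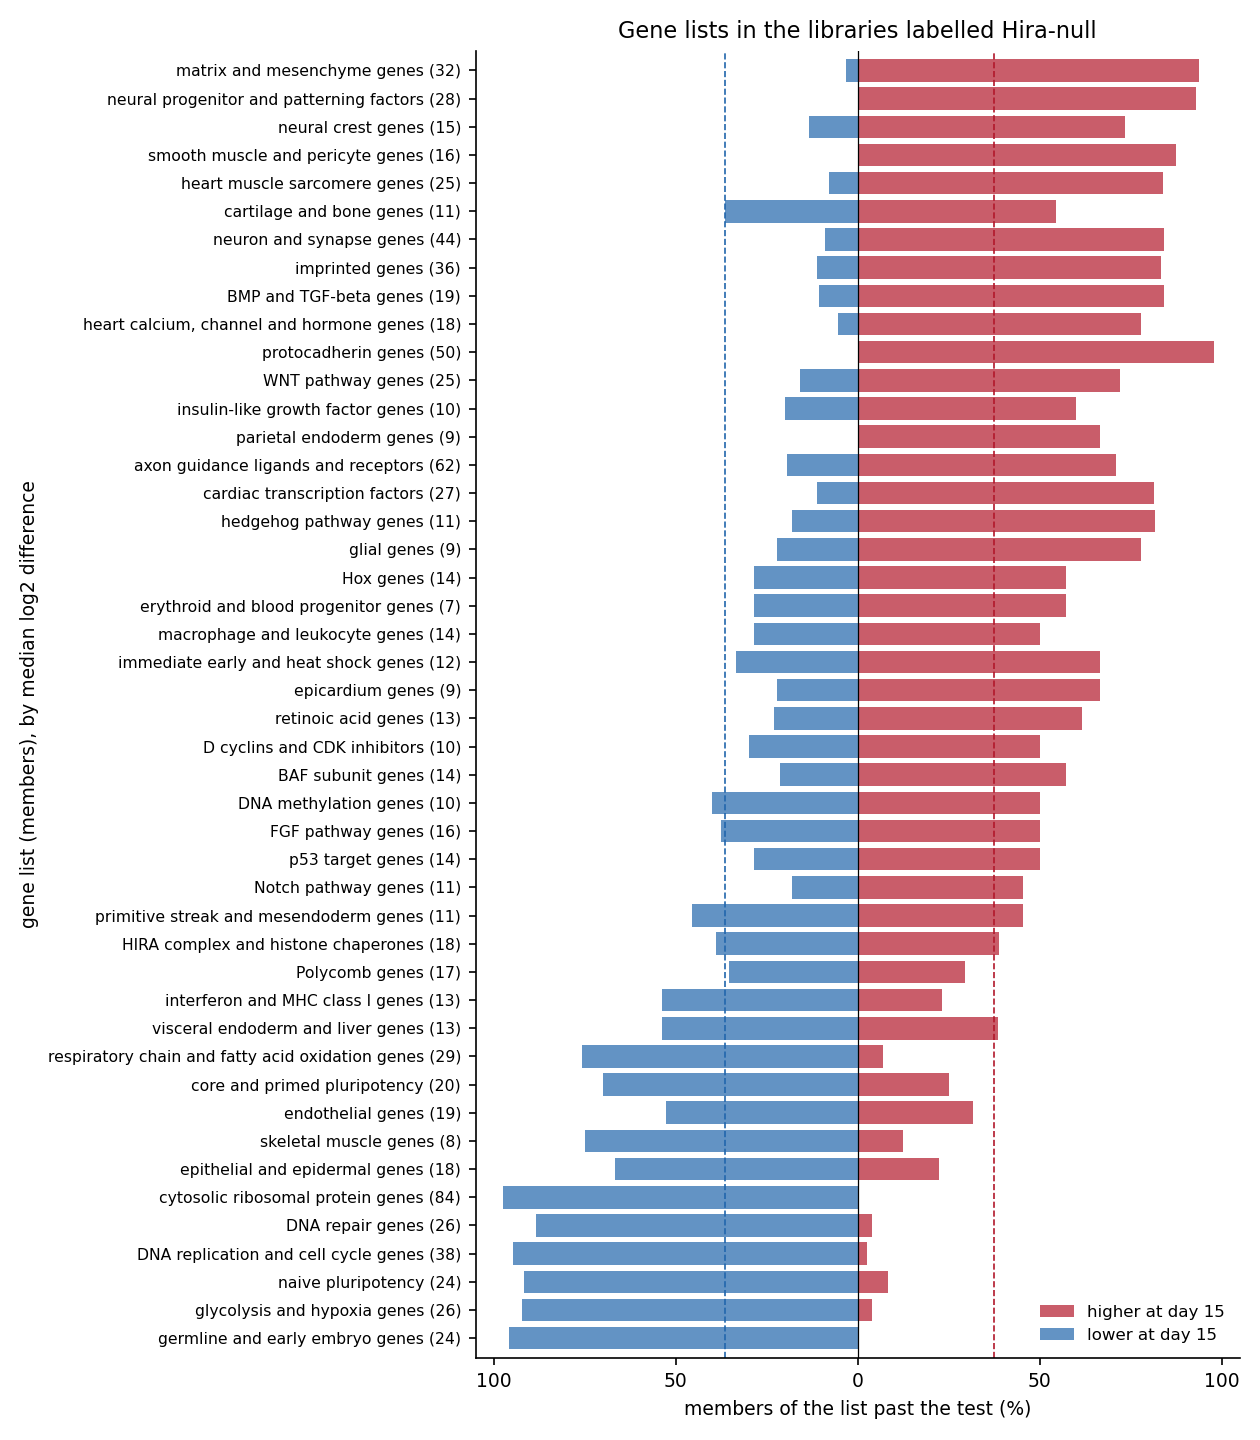
Share of the members of each gene list drawn that rose (red, to the right) or fell (blue, to the left) in the libraries labelled Hira-null (adjusted p of 0.05 or less), with the number of members in parentheses and lists ordered by their median log2 difference. The trophoblast and Y-linked lists are not drawn. Dashed lines mark the shares of all genes tested that were higher (37.5%) and lower (36.4%), and matrix, neural and smooth muscle lists reach past the first while germline, glycolysis and naive pluripotency lists reach past the second.

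Gene structure was compared between genes that rose and genes that fell. Positions in the mm9 annotation were found for 92.2% of 13676 distinct symbols of the rule. Genes that rose with a fold of 2 or more spanned a median of 42.2 kb from first to last exon (quartiles 13.0 and 119 kb), and those that fell spanned 15 kb (5.95 and 30.7 kb). Genes in neither class spanned 23.4 kb. With a fold of 8 or more the medians were 46.6 and 9.46 kb. The summed exon length, a median of 4.76 kb against 2.67 kb for a fold of 2 or more, differed in the same direction. FPKM is already divided by a transcript length, and whether length bears on the calls was not tested. The letters TATAAA stood on either strand in 12.1% of promoters of genes that rose with a fold of 8 or more and in 12.5% of those that fell, beside 6.81% for all genes of the rule and 12.4% of protein-coding promoters. By chromosome, rises with a fold of 2 or more were most frequent on chromosomes 18 and X (28.9% and 28.1% of their genes) and least on 17 (16.3%), and falls were most frequent on chromosome 7 (25.2%) and, leaving out chromosome Y with 4 genes and 0 falls, least on 18 (12.3%). These shares are given as a description.

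**Figure D3:**
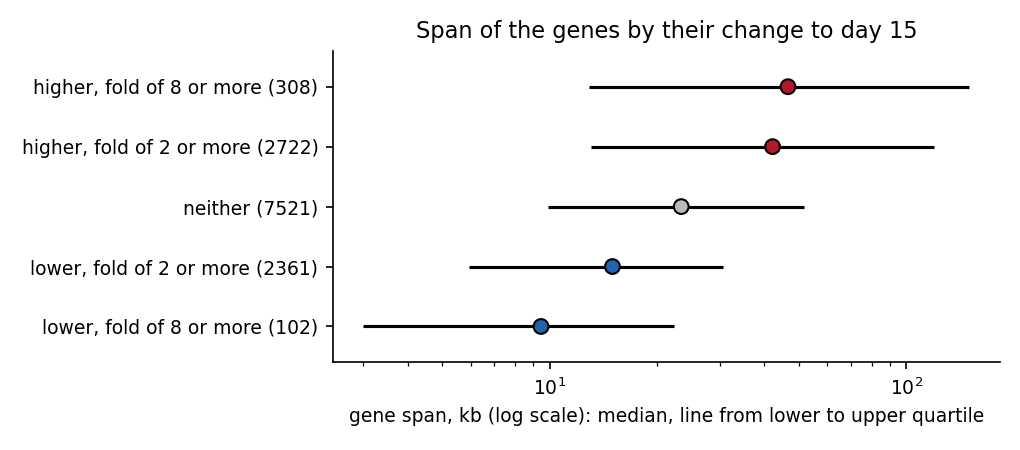
Gene span in kb on a log axis for genes grouped by their change to day 15 in the libraries labelled Hira-null, with points at the median, lines from the lower to the upper quartile and the number of genes in parentheses. The median falls from 46.6 kb in genes that rose with a fold of 8 or more, through 23.4 kb in genes of neither class, to 9.46 kb in genes that fell with a fold of 8 or more.

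The last comparison asked where the change to day 15 differed from that of WT, with the difference of the 2 changes tested in the same fit. The genotypes share no libraries. Of the 13677 genes, 2491 changed more upwards than in WT and 2348 more downwards, beside 17.5% and 17.7% of all genes tested. Without WT day 15 replicate 1 the counts were 1415 and 1338, and without WT day 15 replicate 2 they were 1578 and 1540. Of genes that rose in the clone 75.9% also rose in WT, and of those that rose in WT 82.1% also rose in the clone, with 73.4% and 79.97% for falls. All of these shares are over genes of the Hira-null rule. Genes that changed in WT but stayed under the rule in the clone are left out, which raises the shares of WT changes found in the clone. Opposite calls were made for 168 genes that rose in the clone and fell in WT and for 179 with the reverse. All 347 passed the test of the difference, which opposite calls in the same fit make nearly certain beforehand, so this adds no evidence. Since the groups are 1 clone and 1 WT line, genotype and line cannot be told apart.

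**Figure D4:**
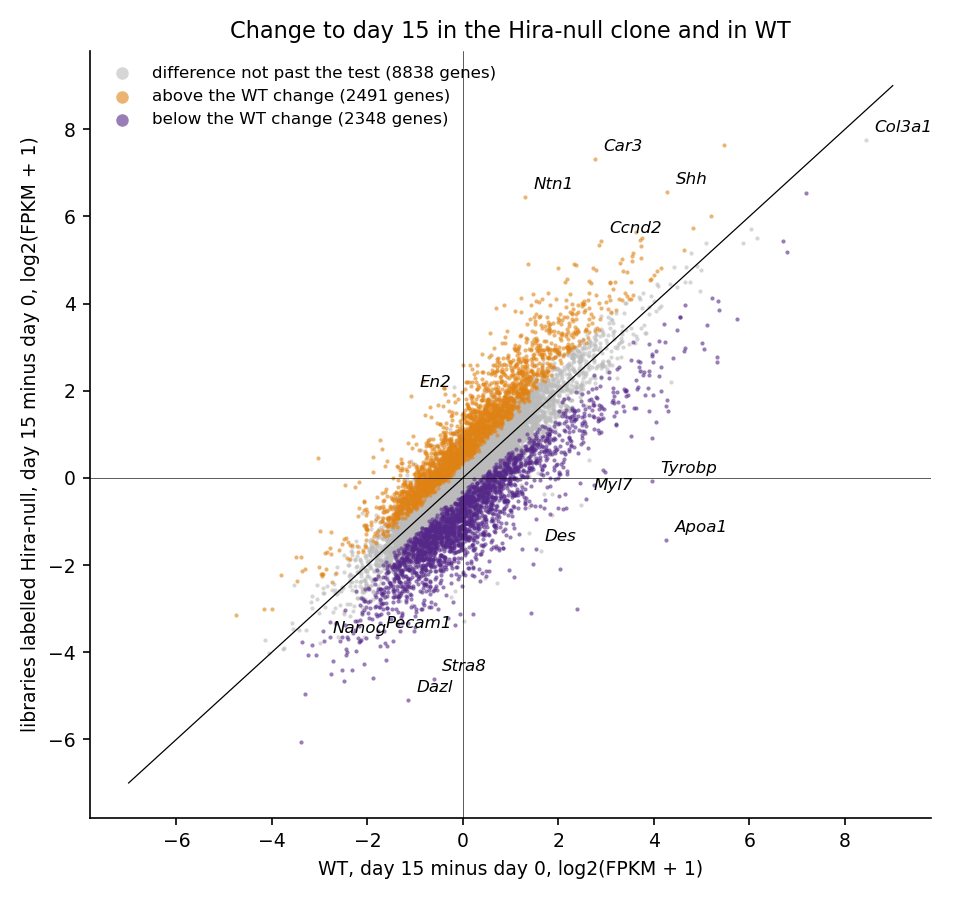
Difference in log2(FPKM + 1) between day 15 and day 0 in the libraries labelled Hira-null (vertical axis) against WT (horizontal axis), one point a gene, 2 libraries a group. Orange genes changed more upwards and purple genes more downwards than in WT (2491 and 2348 genes), grey genes did not pass that test, and the line marks equal changes. Ntn1, Car3 and Shh lie far above the line and Apoa1, Tyrobp, Myl7 and Des far below it.

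Ntn1, Shh, Foxa2 and Tubb3 were among the genes that changed more upwards in the clone. In WT cells Ntn1 went from 16.9 ± 1.44 FPKM (mean ± SD, n = 2) to 43.2 ± 4.11 FPKM, and its change in the clone exceeded that in WT by 5.14, SE 0.25, adjusted p = 1.98e-05 on the log2 scale. Shh was listed at 0 in both WT day 0 libraries too and stood at 18.4 ± 1.12 FPKM in WT at day 15, against 89.8 and 95.8 FPKM in the clone. The difference of the Shh changes was 2.28, SE 0.18, adjusted p = 0.000107, a value that depends on the pseudocount because day 0 is at 0, and with voom it did not pass (adjusted p = 0.226). Foxa2 stood at 1.87 ± 0.0448 and 11.9 ± 0.6696 FPKM in WT (2.40 for the difference), Tubb3 at 53.8 ± 1.77 and 54.7 ± 3.08 FPKM (1.38), and Ccnd2 at 14.9 ± 2.401 and 117 ± 1.04 FPKM (2.53). For Ccnd2 the libraries of the 2 genotypes stood apart at day 0 and close together at day 15. The lists in which most members changed more upwards were those of parietal endoderm (8 of 9), neurons and synapses (30 of 44), neural progenitors (17 of 28), core and primed pluripotency (11 of 20) and cartilage and bone (6 of 11), without a test of any list. Parietal endoderm genes summed to 416 and 399 FPKM in the clone at day 0 and 952 and 1070 FPKM at day 15. In WT they summed to 1875 and 1820 FPKM and then 1988 and 1881 FPKM, so the clone was the lower one at both days. The other lists of this row had higher sums in the clone than in WT at day 15.

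For Ina, a neurofilament-related protein, and En2, a midbrain and hindbrain homeobox gene, the directions were opposite. Ina rose in the clone from 2.83 and 3.33 FPKM to 17.7 and 18.6 FPKM and fell in WT from 17.02 ± 2.21 FPKM to 9.06 ± 0.118 FPKM. En2 rose from 2.18 and 2.12 FPKM to 10.1 and 11.4 FPKM and fell in WT from 4.99 ± 0.0561 FPKM to 1.83 ± 0.168 FPKM. The differences were 3.07 and 2.98 on the log2 scale. Cdh6, a cadherin of crest and kidney, Crim1, a regulator of BMP ligands, and Car3 also changed more upwards (3.53, 3.19 and 4.55). Cdh6 stood at 0.0553 and 0 FPKM at day 0 and 27.8 and 31.9 FPKM at day 15, and Crim1 at 2.79 and 3.15 FPKM at day 0 and 55.7 and 60.1 FPKM at day 15.

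Other genes changed more downwards. The lists in which most members did so were those of glycolysis and hypoxia (22 of 26), cytosolic ribosomal proteins (71 of 84), macrophages and leukocytes (11 of 14), Hox genes (9 of 14), immediate early and heat shock genes (7 of 12), epithelium (10 of 18), germline (13 of 24), retinoic acid (7 of 13), matrix and mesenchyme (17 of 32) and endothelium (10 of 19), without a test of any list. At day 15 the germline list summed to 57.7 and 51.1 FPKM in the clone and 56.04 and 65.5 FPKM in WT, so it ended at like levels. At day 0 its sums were 498 and 511 FPKM in the clone and 401 and 402 FPKM in WT. The other lists of this row had lower sums in the clone than in WT at day 15. At day 0, however, all of these except the epithelial and matrix lists had higher sums in the clone. Glycolysis and hypoxia genes, for example, summed to 11690 and 11686 FPKM in the clone at day 0 and 8378 and 8160 FPKM in WT. For epithelial genes the day 0 sums were 763 and 773 FPKM in the clone and 1035 and 1013 FPKM in WT. Their differences thus hold a difference at day 0 as well as at day 15. Lists to which other genes named here belong were split. Of 13 visceral endoderm and liver genes 4 changed more upwards, Foxa1 and Foxa2 among them, and 6 more downwards, and of 25 sarcomere genes 4 changed more upwards, Tpm1 among them (1.65), and 5 more downwards. Apoa1 was listed at 0 in both WT day 0 libraries and stood at 18.2 ± 1.85 FPKM in WT at day 15, and the difference of the changes, which depends on the pseudocount, was −5.69, SE 0.32, adjusted p = 3.75e-05. Tyrobp, also listed at 0 in WT at day 0, stood at 14.4 ± 0.561 FPKM in WT at day 15 (−4.02), and Ttr stood at 0.201 ± 0.127 and 17.5 ± 0.493 FPKM in WT (−3.03). Afp, which is outside the rule, stood at 55.3 ± 1.16 FPKM in WT at day 15. Myl7 rose in WT from 10.4 ± 0.865 FPKM to 66.9 ± 2.801 FPKM, and its change differed by −3.05, SE 0.15, adjusted p = 1.98e-05. Des rose in WT from 8.06 ± 0.756 FPKM to 25.3 ± 0.761 FPKM and differed by −3.18, SE 0.27, adjusted p = 0.000159. In both muscle genes the WT and the clone moved apart, and for Myl7 the clone's own fall is within the scaling limit given above. Dazl and Stra8 fell less in WT, from 15.4 ± 5.17 FPKM to 6.29 ± 1.2 FPKM and from 7.19 ± 1.45 FPKM to 4.32 ± 0.0255 FPKM, so that the differences were −3.96 and −4.01. Pecam1 stood at 56.4 ± 2.54 and 15.5 ± 0.673 FPKM in WT (−1.84).

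Several heart genes rose in both genotypes, while the lists they belong to were mixed. Of 27 cardiac transcription factors 4 changed more upwards than in WT and 9 more downwards. Of 16 smooth muscle and pericyte genes 2 changed more upwards and 7 more downwards, and of 18 heart calcium, channel and hormone genes 5 and 2. Over all genes tested these shares were 17.5% and 17.7%, and no list was tested. The differences of the changes for Tnnt2, Nkx2-5, Gata4, Ryr2 and Myh7 were 0.32, 0.21, 0.18, 0.10 and 0.03 on the log2 scale, and none of these passed the test, which does not show that they are equal. Myh6 changed more upwards by 0.71 and Actc1 more downwards by 1.91 on the log2 scale. In WT, Actc1 stood at 0.706 ± 0.446 and 52.5 ± 0.271 FPKM.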

How the data were processed

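RNA of 8 libraries (WT and Hira-null mESCs, day 0 and day 15, 2 each) had been extracted with Trizol and made into libraries with a stranded mRNA kit. The submitters' processing notes name Bowtie 0.12.2, DESeq2 1.6.3 and the mm9 build; the counting tool, its annotation and its use of strand are not given in the sources used here. The authors deposited 1 table of FPKM per gene and library, which was used as given, and 2 tables with their own fold changes and p-values between genotypes, which were not used. Each of 19134 genes above 0 gave whole fragments at a tolerance of 0.001, from which depth (6897009 to 11088835 fragments) and the voom alternative were derived. Every column was mapped to its group by its label. Spreadsheet dates stood in place of 27 symbols, which are left unnamed.

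Genes that reached 1 FPKM in 2 or more of 8 libraries were fitted as log2(FPKM + 1) with limma 3.58.1 (R 4.3.3), with 4 group means, 1 weight per day (1.03 and 0.968) and a trended variance (4 residual and 4.7 prior degrees of freedom). Calls were made at a Benjamini-Hochberg adjusted p of 0.05. The fit was tested on simulated data. The difference of the changes in the 2 genotypes was a contrast in the same fit. A fold against a day listed at 0 is a bound against 3 fragments per library, which covers counting error only. Alternatives were the TPM, median ratio and upper quartile scalings, a pseudocount of 0.1, other filters, no weights, the 4 Hira-null libraries alone, voom, a replicate block and each library left out.

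Named genes were the 12 largest changes a direction at 10 FPKM or more with no overlap between days, the 4 highest and 2 most changed a direction of each list, fixed markers, the 10 largest differences from WT a direction and the 10 highest genes a day. The genes, the 48 lists and the rule were chosen with earlier results of these data known. A list of Y-linked genes is not described. Positions, exon overlaps and the 250 bases before each start came from the NCBIM37 (mm9) genome with GENCODE annotation. A few results are not reported here.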

Additional observations from a re-analysis of the deposited data

Results flagged for a closer look

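The results here were picked because the change to day 15 in the libraries labelled Hira-null differed from that in WT by the test of the difference itself (limma, Benjamini-Hochberg adjusted p of 0.05 or less), and each value is the first change minus the second on the log2 scale. Hira, the targeted gene, was at 1.37, having risen in the clone and fallen in WT.

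Upwards, the midline and neural genes Ntn1, Shh and Foxa2 stood at 5.14, 2.28 and 2.40, and Ina, En2 and Tubb3 at 3.07, 2.98 and 1.38. Car3, Cdh6, Crim1 and Ccnd2 stood at 4.55, 3.53, 3.19 and 2.53. Downwards, the serum protein genes Apoa1 and Ttr stood at −5.69 and −3.03, the myeloid adaptor Tyrobp at −4.02, the germline genes Stra8 and Dazl at −4.01 and −3.96, the muscle genes Des and Myl7 at −3.18 and −3.05, and Pecam1 at −1.84. All are single genes of 1 clone against 1 WT line, with 2 libraries a group, and clone and genotype cannot be told apart.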

How the results depend on the processing

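With TPM scaling, added after seeing the data, 3188 genes fell, and with a fold of 2 or more 4765 rose and 1617 fell. This follows in part from the scaling itself, which raises every day 15 value relative to day 0. Scaling also makes the added 1 smaller beside the values, which widens the differences of low genes. The median of the germline list went from −2.81 to −3.07 and that of skeletal muscle genes from −1.08 to −1.15, while the other lists moved up. How much of the change in counts came from each was not tested. On TPM the falls of Dnmt3b, Myl7, Thy1, Id1 and Ezh2 became differences of 0.23, 0.01, 0.14, 0.18 and 0.08 on the log2 scale. Among the lists, 5 respiratory chain genes, 2 replication genes, 2 glycolysis genes and 1 germline gene rose on TPM, and 2 cartilage genes and 1 gene each of the blood, glial, insulin-like growth factor, hedgehog, BMP and sarcomere lists fell. With each library left out in turn, the genes that rose numbered 4805 to 4929 and those that fell 4619 to 4856, and with a fold of 2 or more 2912 to 2958 and 2528 to 2593. Genes changed more upwards than in WT numbered 1415 to 2257 and more downwards 1338 to 2227, the lowest without WT day 15 replicate 1. The Hira difference was 0.46 to 0.69. These totals were within 1.5 times of the values reported under the other settings run. Of 2988 alternative values of single genes and their differences from WT, 2934 kept their direction and side of the threshold, 31 lost the call, 18 gained it and 5 reversed.

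Replicate numbers are shared by title only. With a replicate block, 5203 genes rose and 5069 fell, and 2317 and 2213 differed from WT. Deviations of same-numbered libraries correlated at −0.0967 to 0.0455, so the numbers are not taken to pair the libraries. With 2 libraries a group and 6897009 to 9183706 fragments, small changes and genes near 1 FPKM are measured least firmly.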
